A study of Mus musculus with 9 samples.

Results

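The meiotic prophase genes are 36 named genes with roles in the first meiotic division: entry into meiosis, chromosome axis and synaptonemal complex, meiotic cohesin, double-strand breaks, strand exchange and crossovers. The rule picks them by gene symbol, and the set was drawn up with earlier results of these data known. Of the 36, 34 were found among the 23420 genes of the count files under the symbol given, Rec114 was found under its older symbol 2410076I21Rik, and Rnf212 was not found under any symbol searched, so 35 genes were analysed. All 35 passed the filter on low counts, which kept 16360 genes. Meioc appears in the files as Gm1564 and is called Gm1564 here.

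The ovaries were from wild-type CD1 mice, an outbred stock, taken on embryonic day 16 and kept for 24 h on a porous culture insert in phenol red-free α-MEM with insulin, transferrin, selenium and linoleic acid. One group received estradiol-17β (E2) at 3.67 µM, one received recombinant human bone morphogenetic protein 2 (BMP2) at 50 ng/ml, and the controls received vehicle, with 3 libraries in each group. The study asked how each signal changes the ovarian transcriptome around the time when germ cell nests break down and primordial follicles form. Whole ovaries were sequenced, so a lower level of a germ cell transcript can come from fewer germ cells or from less RNA per germ cell, and these cannot be told apart. Nothing in the labels ties the 3 libraries in each group to separate cultures or litters, so the p-values measure the spread between these libraries, which may be technical.

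In the mouse fetal ovary, germ cells leave the mitotic cycle, replicate their DNA, enter meiotic prophase, and load cohesin and axis proteins onto their chromosomes. The SPO11 complex then cuts the DNA, DMC1 and its partners carry the broken ends to the homologous chromosome, and the synaptonemal complex zips the homologues together while some repair sites mature into crossovers. Oocytes finish these steps before birth and arrest at the diplotene stage inside the primordial follicle, when most of these genes are being switched off.

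Libraries held 30418674 to 31778161 counts in genes with E2, 33360565 to 34320077 with BMP2 and 30860223 to 34253992 with vehicle, and the 35 genes took 0.446% to 0.466% of them in every library. Germ cell and pregranulosa markers matched the ovarian label: the germ cell gene Ddx4 was at 188 to 191 CPM (counts scaled to a common library size) with E2, 191 to 192 CPM with BMP2 and 173 to 178 CPM with vehicle, and Foxl2, which marks pregranulosa cells, was at 55.7 to 66.0 CPM in all libraries. Of the testis markers, Amh stayed at or below 0.916 CPM and Sox9 between 6.46 and 10.4 CPM. CPM values here are scaled with the trimmed mean of M-values (TMM), which sets the typical gene to no change.

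With E2, 20 of the 35 genes fell (57.1%), 3 rose (8.57%: Smc1b, Tex15 and Mlh3) and 12 did not pass the test, where a gene passes at an adjusted p under 0.05 in edgeR's quasi-likelihood test with Benjamini-Hochberg adjustment over all 16360 genes. Among all genes tested, 16.5% were lower and 15.8% were higher with E2 than with vehicle. With BMP2, 11 of the 35 fell (31.4%), 2 rose (5.71%: Smc1b and Rad21l) and 22 did not pass, against 6.85% of all genes lower and 6.84% higher than with vehicle. The median log2 fold change of the 35 genes was -0.127 for E2 over vehicle and -0.064 for BMP2 over vehicle, beside medians over all genes of -0.003 and -0.002. The changes were small: the members that passed lay between -0.41 and 0.17 on the log2 scale with E2 and between -0.30 and 0.14 with BMP2. When the test asked for a change beyond 1.2-fold, 4 members passed with E2, all lower (Rec8, Prdm9, Dmc1 and Rad51ap2), and 0 passed with BMP2, against 877 and 70 genes in all. The E2 and BMP2 comparisons share the same vehicle libraries, so their values are given side by side and not as independent support for each other.

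**Figure D1:**
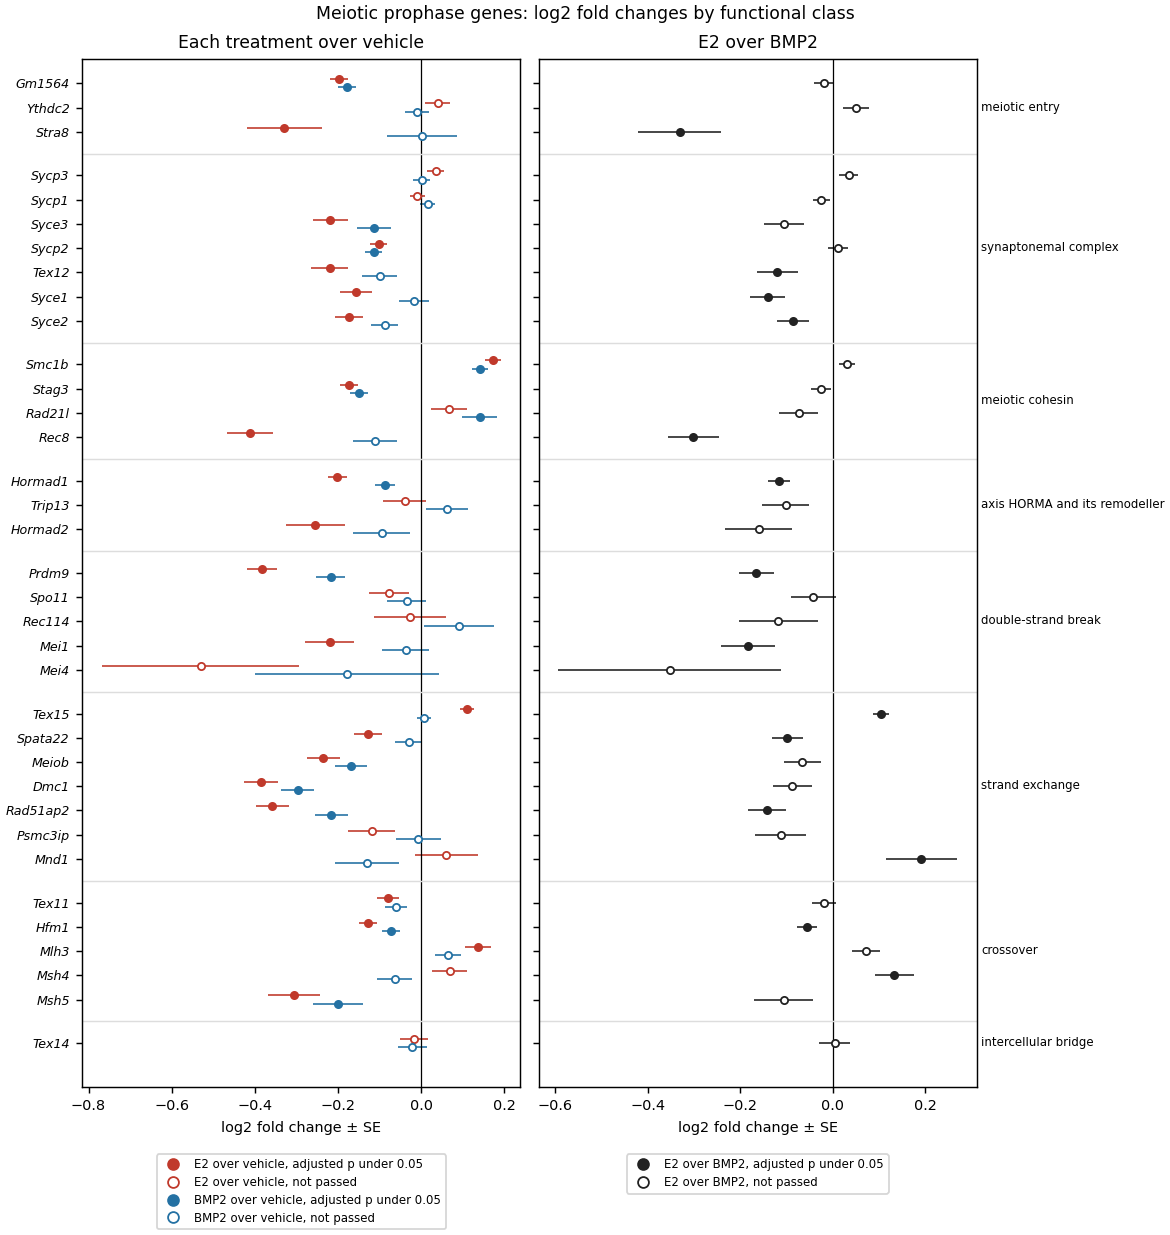
Log2 fold change with its standard error (bars) for each of the 35 genes, grouped by class, on the left for E2 over vehicle and BMP2 over vehicle and on the right for E2 over BMP2. Filled points passed at an adjusted p under 0.05. Most filled points lie below 0, and Smc1b, Tex15, Mlh3 and Rad21l are the exceptions over vehicle. Scaled to germ cell genes, these rises did not pass in either direction. Smc1b and Rad21l were then each -0.07 with BMP2, and with E2 Smc1b was 0.01, Tex15 -0.05 and Mlh3 -0.03.

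Overlap between libraries was counted without a model. In 22 of the 35 genes every E2 library lay below every vehicle library, and in 6 every E2 library lay above, while among all genes tested 20.9% lay wholly below and 20.4% wholly above. With BMP2, 14 genes lay wholly below vehicle and 2 wholly above, against 14.0% and 14.1% of all genes. Past the threshold in either direction were 32.3% of all genes for E2 over vehicle and 13.7% for BMP2 over vehicle.

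Per kilobase of exon, the transcripts of the 35 genes spanned about 3 orders of magnitude. On the RPKM scale, which is CPM divided by exon length in kilobases, Sycp3 was highest at 237 ± 0.305 with E2, 231 ± 7.04 with BMP2 and 231 ± 7.83 with vehicle (SD, n = 3 each), and Sycp1 followed at 197 ± 3.30, 200.1 ± 4.72 and 198 ± 6.23 RPKM with E2, BMP2 and vehicle. Next came Smc1b, Tex15 and Hormad1. With E2 they stood in that order, at 118 ± 0.885 RPKM for Smc1b, 105 ± 1.2 RPKM for Tex15 and 96.2 ± 2.18 RPKM for Hormad1. With vehicle the order was Hormad1 at 111 ± 2.58 RPKM, Smc1b at 104 ± 0.962 RPKM and Tex15 at 97.5 ± 2.92 RPKM. Syce3 was at 64.5 ± 2.53 with E2 and 75.0 ± 3.16 with vehicle, and most other structural and repair genes lay between 10 and 55 RPKM. At the low end were Stra8 (3.74 ± 0.434 with E2, 4.71 ± 0.398 with BMP2, 4.70 ± 0.398 with vehicle), Msh5 (2.63 ± 0.133, 2.83 ± 0.121, 3.25 ± 0.0637) and Mei4 (0.210 ± 0.0251, 0.269 ± 0.0244, 0.304 ± 0.0164, in the same order of groups). Neighbours could lie close: with vehicle, Spo11 (7.42 ± 0.108) lay within the SD of Trip13 (7.12 ± 0.485).

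**Figure D2:**
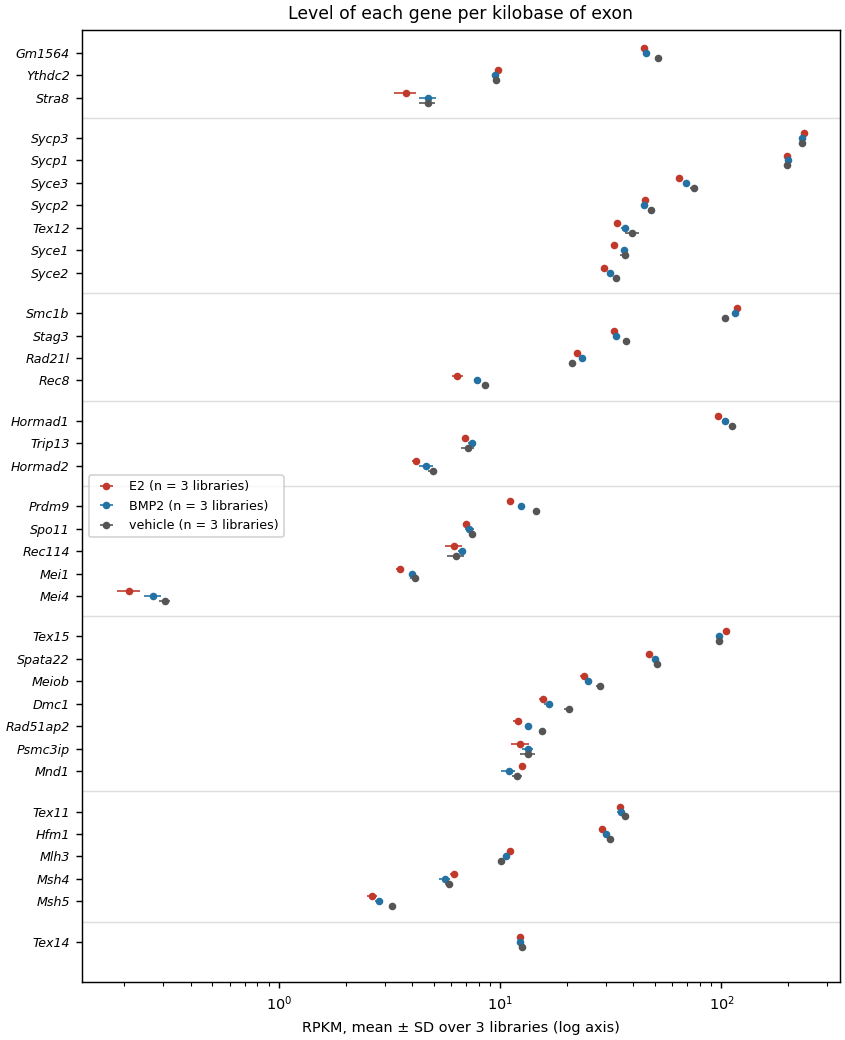
Mean level of each gene in RPKM on a log axis, with the SD over 3 libraries as bars, for E2, BMP2 and vehicle. Sycp3 and Sycp1 lie near 200 RPKM in all 3 groups while Mei4 lies below 1 RPKM, and the shifts between groups are small beside the spread between genes.

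Sequence upstream of the transcription start is shown for 5 members whose results recur below: Dmc1, Rad51ap2, Hormad1 and Rec8, which fell with E2, and Smc1b, which rose with both treatments. They are written 5′ to 3′ on the gene's own strand in GRCm38.p6, and come from the 250 bases before the RefSeq start. Bases within an annotated GENCODE exon were left out: for Rec8 the RefSeq window is chr14:55617916-55618165, and the stretch shown stops at the GENCODE start of Rec8, short of the RefSeq start. For Smc1b the window is chr15:85131958-85132207, and the stretch shown lacks bases at both of its ends. Capitals mark the letters GGCGGGAA (the core of an E2F6-type site), AGGTCA (an arm of the oestrogen response element), CACGTG (an E-box) and GGCGCC (a GC-rich SMAD site). They lie at chr15:79605110-79605359 (minus strand, Dmc1), chr12:11455805-11456054 (plus, Rad51ap2), chr3:95559427-95559676 (plus, Hormad1), chr14:55617916-55618036 (plus, Rec8) and chr15:85131965-85132077 (minus, Smc1b).
Dmc1: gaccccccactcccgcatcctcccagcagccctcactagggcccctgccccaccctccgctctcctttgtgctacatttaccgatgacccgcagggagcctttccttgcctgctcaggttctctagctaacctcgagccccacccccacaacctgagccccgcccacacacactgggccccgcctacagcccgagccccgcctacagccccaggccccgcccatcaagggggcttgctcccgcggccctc
Rad51ap2: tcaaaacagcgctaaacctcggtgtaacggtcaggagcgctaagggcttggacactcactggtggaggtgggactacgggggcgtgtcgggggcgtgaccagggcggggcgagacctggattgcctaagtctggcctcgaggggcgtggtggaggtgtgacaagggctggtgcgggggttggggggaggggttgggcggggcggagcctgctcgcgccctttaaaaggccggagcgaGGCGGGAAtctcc
Hormad1: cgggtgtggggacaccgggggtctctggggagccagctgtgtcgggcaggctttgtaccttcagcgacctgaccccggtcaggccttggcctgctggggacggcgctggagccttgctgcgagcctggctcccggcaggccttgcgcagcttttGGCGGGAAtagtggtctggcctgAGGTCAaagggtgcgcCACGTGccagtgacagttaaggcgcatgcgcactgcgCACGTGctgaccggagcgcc
Rec8: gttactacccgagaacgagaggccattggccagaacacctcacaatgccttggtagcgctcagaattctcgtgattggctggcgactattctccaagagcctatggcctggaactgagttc
Smc1b: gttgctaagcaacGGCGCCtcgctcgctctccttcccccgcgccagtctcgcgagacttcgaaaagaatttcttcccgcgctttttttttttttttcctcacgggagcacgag
In Rad51ap2 the GGCGGGAA begins 13 bases before the start, and in Hormad1 it begins 96 bases before the start, ahead of AGGTCA at 73 and CACGTG at 57 and 20. Neither Dmc1 nor Rec8 held any of the letters searched in the stretch shown, and Smc1b held GGCGCC 107 bases before the start. The full 250 bases were searched on both strands in 31 members with a RefSeq promoter, Rnf212 among them. GGCGGGAA was in 6 of them (19.4%: Tex12, Hormad1, Rad51ap2, Msh5, Rnf212 and Tex14), against 1.86% of 32851 mouse promoters of the same length. CACGTG was in 6 (19.4%, against 6.02% of all promoters) and GGCGCC in 7 (22.6%, against 9.59%). AGGTCA was in 5 (16.1%, against 14% of all), and the full element, GGTCA and TGACC 3 bases apart, in 0 of the 31, against 0.0639% of all. CNCCTCAG, the letters bound by STRA8 in mouse, was in 3 (9.68%, against 6.42%), and GTTGCCA and TGACGTCA were in 0 each, against 3.66% and 1.55%. The members' windows were also richer in CpG, with a median observed over expected ratio of 0.727 against 0.373 in all promoters, and the part of base composition in the GC-rich matches was not tested. These are letter matches in a fixed window and show nothing of binding. Some windows, such as those of Stra8, Gm1564 and Mei1, lie inside the gene as annotated by GENCODE. The set of all promoters can also hold several per gene, while each member has 1, so the 2 sets are not alike.

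Of the genes of meiotic entry, Stra8 and Gm1564 fell with E2, Gm1564 fell with BMP2, and Ythdc2 did not pass in either. STRA8 is the retinoic acid induced factor that switches on the meiotic programme in germ cells. Stra8 was at 6.27, 6.32 and 7.65 CPM with E2, at 8.96, 8.86 and 7.67 CPM with BMP2, and at 8.28, 7.88 and 9.27 CPM with vehicle. All E2 libraries lay below all vehicle libraries and all BMP2 libraries, although the highest E2 library lay next to the lowest BMP2 library, and the BMP2 and vehicle libraries overlapped. The log2 fold change of Stra8 was -0.33 ± 0.090 (SE) for E2 over vehicle (1.26-fold lower, edgeR adjusted p = 0.00206) and 0.00 for BMP2 over vehicle (95% interval -0.17 to 0.17, adjusted p = 0.992). For E2 over BMP2 it was -0.33 ± 0.090 (edgeR adjusted p = 0.00197).

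Gm1564 (MEIOC) works with the RNA helicase YTHDC2 to keep germ cells in an extended prophase and to clear mitotic transcripts. It was at 202, 209 and 209 CPM with E2, at 206, 211 and 211 CPM with BMP2 and at 235, 231 and 245 CPM with vehicle. Both treated groups lay wholly below vehicle and overlapped each other. Gm1564 fell by 0.20 ± 0.022 on the log2 scale with E2 (1.15-fold lower, edgeR adjusted p = 4.1e-14) and by 0.18 ± 0.022 with BMP2 (1.13-fold lower, adjusted p = 2.1e-11), and E2 over BMP2 was -0.02 (95% interval -0.06 to 0.02). Its partner Ythdc2 was at 87.0 ± 1.14 CPM with E2, 84.0 ± 0.763 CPM with BMP2 and 84.6 ± 1.23 CPM with vehicle (SD, n = 3), a log2 fold change of 0.04 for E2 over vehicle with a 95% interval of -0.02 to 0.10.

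Of the 7 synaptonemal complex genes, 5 fell with E2 (71.4%, beside 16.5% of all genes) and 2 fell with BMP2 (28.6%, beside 6.85%). None of the 7 rose with either treatment, beside 15.8% of all genes with E2 and 6.84% with BMP2. The 4 small central element genes measured (Syce1, Syce2, Syce3 and Tex12), whose proteins hold the middle of the zipper together, all fell with E2, as did Sycp2, which builds the lateral element. Syce3 was at 36.5, 34.0 and 36.4 CPM with E2, at 37.7, 39.5 and 37.8 CPM with BMP2 and at 43.0, 41.8 and 39.6 CPM with vehicle, with the 3 groups in that order and no overlap between them. Its log2 fold change was -0.22 ± 0.042 for E2 over vehicle (edgeR adjusted p = 8.2e-06) and -0.11 ± 0.041 for BMP2 over vehicle (adjusted p = 0.0498).
The BMP2 call of Syce3 sits at the threshold: it was lost with DESeq2 (adjusted p = 0.146) and when any of 7 libraries was left out. Without BMP2 replicate 1 or 3 the adjusted p was 0.177 or 0.159, without vehicle replicate 1 or 2 it was 0.280 or 0.115, and without E2 replicate 1, 2 or 3, which share the estimate of spread, it was 0.0534, 0.0546 or 0.0534.

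Syce2 was at 57.7, 57.8 and 58.6 CPM with E2, at 63.1, 61.1 and 60.6 CPM with BMP2 and at 65.2, 66.2 and 65.0 CPM with vehicle. The groups again kept that order without overlap, but over vehicle E2 passed (-0.17 ± 0.034, edgeR adjusted p = 9.2e-06), while BMP2 gave -0.09 with an adjusted p of 0.0616. Tex12 was at 34.1, 34.9 and 34.1 CPM with E2, at 38.5, 35.6 and 38.0 CPM with BMP2 and at 38.7, 38.2 and 43.3 CPM with vehicle. All E2 libraries of Tex12 lay below the others, and BMP2 and vehicle overlapped. Tex12 fell by 0.22 ± 0.044 with E2 (edgeR adjusted p = 1.4e-05), and BMP2 over vehicle was -0.10, which did not pass (adjusted p = 0.106) but did without vehicle replicate 2 (adjusted p = 0.0440). Syce1 fell by 0.16 with E2 and was -0.02 for BMP2 over vehicle (95% interval -0.09 to 0.06).

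Sycp2 was at 266, 269.7 and 269 CPM with E2, at 269.6, 261 and 267 CPM with BMP2 and at 293, 279 and 291 CPM with vehicle. Both treated groups lay below vehicle and overlapped each other. Sycp2 fell by 0.10 ± 0.021 with E2 (edgeR adjusted p = 2.0e-05) and by 0.11 ± 0.021 with BMP2 (adjusted p = 6.9e-06), both less than 1.1-fold. Sycp3, the other lateral element gene, and Sycp1, which forms the transverse filaments, are the most abundant of the class and did not pass. Sycp3 was at 299, 299 and 299.9 CPM with E2, at 289, 286 and 303 CPM with BMP2 and at 298, 281 and 297 CPM with vehicle. The E2 libraries lay just above all vehicle libraries, and the BMP2 libraries spanned both. The log2 fold change of Sycp3 was 0.04 ± 0.021 for E2 over vehicle (95% interval -0.01 to 0.08, edgeR adjusted p = 0.203) and 0.00 for BMP2 over vehicle (-0.04 to 0.04). With a trend over GC content and transcript length removed, an alternative chosen after seeing the data, Sycp3 passed as higher, at 0.07 with E2 (adjusted p = 5.0e-04) and 0.06 with BMP2 (adjusted p = 0.0106). Of the exon bases of Sycp3, 52.2% lie under exons of Chpt1 on the other strand, and the library kit does not mark strand. The strand setting of the counting is not given, so the counts of Sycp3 may include reads of Chpt1 or lack reads set aside as ambiguous. Sycp1 gave -0.01 for E2 over vehicle (95% interval -0.04 to 0.03) and 0.02 for BMP2 over vehicle (-0.02 to 0.05).

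The 4 meiotic cohesin genes moved apart from each other. Smc1b encodes the SMC subunit of the meiotic ring, Rec8 and Rad21l encode alternative kleisins that close it, and Stag3 encodes the subunit that binds the kleisin. With E2, Smc1b rose while Rec8 and Stag3 fell; with BMP2, Smc1b and Rad21l rose while Stag3 fell. Smc1b was at 479, 476 and 472 CPM with E2, at 472, 457 and 468 CPM with BMP2 and at 426, 418 and 423 CPM with vehicle. All treated libraries stood above all vehicle libraries. Its log2 fold change was 0.17 ± 0.019 for E2 over vehicle (1.13-fold higher, edgeR adjusted p = 9.1e-15) and 0.14 ± 0.019 for BMP2 over vehicle (1.1-fold higher, adjusted p = 4.0e-10). This direction is relative to the typical gene: scaled to 18 germ cell genes instead, Smc1b was 0.01 for E2 over vehicle and -0.07 for BMP2 over vehicle, and no member passed as higher over vehicle with either treatment. Of those 18 genes, 9 were themselves higher than with vehicle in each comparison (50.0%, beside 15.8% of all genes with E2 and 6.84% with BMP2).

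Rec8 was at 20, 18.0 and 18.4 CPM with E2, at 23.3, 23.4 and 22.7 CPM with BMP2 and at 25.4, 24.2 and 25.2 CPM with vehicle. The 3 groups did not overlap, with E2 lowest. Rec8 had the largest fall with E2 among the members that passed, -0.41 ± 0.055 (1.33-fold lower, edgeR adjusted p = 9.5e-11), and BMP2 over vehicle, at -0.11 ± 0.052, did not pass (95% interval -0.21 to -0.01, adjusted p = 0.153). The difference between the treatments was itself past the threshold, at -0.30 ± 0.055 for E2 over BMP2 (edgeR adjusted p = 2.2e-06). Rad21l, the other kleisin, was at 36.7, 37.1 and 36.8 CPM with E2, at 38.3, 39.6 and 38.6 CPM with BMP2 and at 35.0, 35.1 and 35.6 CPM with vehicle. Its groups also did not overlap, with BMP2 highest. Rad21l rose by 0.14 ± 0.042 with BMP2 (edgeR adjusted p = 0.0112, and 0.0583 without BMP2 replicate 2), though scaled to germ cell genes it was -0.07, and E2 over vehicle was 0.07, which did not pass (95% interval -0.02 to 0.15).

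Stag3 was at 189, 187 and 188 CPM with E2, at 195, 190.3 and 189 CPM with BMP2 and at 210.0, 213 and 214 CPM with vehicle. Both treatments lay wholly below vehicle. Stag3 fell by 0.17 ± 0.022 with E2 (edgeR adjusted p = 1.2e-11) and by 0.15 ± 0.022 with BMP2 (adjusted p = 1.5e-08), and E2 over BMP2 was -0.02 (95% interval -0.07 to 0.02). Because Smc1b makes up most of the class, the summed level of the 4 cohesin genes was higher in treated libraries, at 716 to 725 CPM with E2 and 711 to 728 CPM with BMP2, against 690.4 to 698 CPM with vehicle, while 2 of its 4 genes fell with E2.

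Of the axis genes, the HORMA domain genes Hormad1 and Hormad2 fell with E2, Hormad1 fell with BMP2, and Trip13, whose product strips HORMAD proteins from synapsed axes, did not pass. Hormad1 was at 169, 168 and 162 CPM with E2, at 179, 176 and 185 CPM with BMP2 and at 193, 186 and 195 CPM with vehicle. The 3 groups did not overlap and stood in that order. Hormad1 fell by 0.20 ± 0.023 with E2 (1.15-fold lower, edgeR adjusted p = 1.3e-13) and by 0.09 ± 0.023 with BMP2 (1.06-fold lower, adjusted p = 0.00320), and E2 over BMP2 was -0.12 ± 0.023 (adjusted p = 1.6e-05). Leaving out BMP2 replicate 2 took the BMP2 call away (adjusted p = 0.0501), as did removing the trend over GC content and length (adjusted p = 0.132).

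Hormad2, a much rarer transcript, was at 11.8, 11.3 and 10.9 CPM with E2, at 13.1, 11.6 and 13.2 CPM with BMP2 and at 13.1, 14.3 and 13.2 CPM with vehicle. E2 lay wholly below vehicle, and BMP2 overlapped both. Hormad2 fell by 0.26 ± 0.071 with E2 (1.19-fold lower, edgeR adjusted p = 0.00249), and BMP2 over vehicle was -0.10 (95% interval -0.23 to 0.04). Trip13 was at 24.0 ± 0.276 CPM with E2, 25.8 ± 1.03 CPM with BMP2 and 24.7 ± 1.68 CPM with vehicle (SD, n = 3), with log2 fold changes of -0.04 and 0.06 over vehicle for E2 and BMP2.

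Among the 5 double-strand break genes, Prdm9 and Mei1 fell with E2 and Prdm9 fell with BMP2, while Spo11, Rec114 and Mei4 did not pass in either. PRDM9 is the zinc finger methyltransferase that marks the hotspots where breaks are made. Prdm9 was at 48.7, 45.7 and 48.9 CPM with E2, at 54.7, 51.5 and 54.4 CPM with BMP2 and at 60.2, 62.8 and 63.9 CPM with vehicle. The groups stood apart in that order. Prdm9 fell by 0.38 ± 0.036 with E2 (1.30-fold lower, edgeR adjusted p = 7.6e-18) and by 0.22 ± 0.035 with BMP2 (1.16-fold lower, adjusted p = 4.3e-07), and E2 over BMP2 was -0.17 ± 0.037 (adjusted p = 1.3e-04).

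Mei1, needed with REC114 and MEI4 for break formation in mice, was at 17.3, 16 and 16.8 CPM with E2, at 19, 18.8 and 19.0 CPM with BMP2 and at 19.0, 20.6 and 18.8 CPM with vehicle. E2 lay below both other groups, which overlapped. Mei1 fell by 0.22 ± 0.059 with E2 (edgeR adjusted p = 0.00166), and BMP2 over vehicle was -0.04 (95% interval -0.15 to 0.08). Spo11, which encodes the catalytic subunit that cuts the DNA, was at 27.6 ± 0.815 CPM with E2, 28.4 ± 1.28 CPM with BMP2 and 29.1 ± 0.422 CPM with vehicle (SD, n = 3). Its log2 fold change for E2 over vehicle was -0.08 (95% interval -0.17 to 0.02). Mei4, at 0.792 to 0.984 CPM with E2, 0.996 to 1.19 CPM with BMP2 and 1.2 to 1.33 CPM with vehicle, had the most negative estimate for E2 over vehicle of all members, -0.53 ± 0.24, but its adjusted p was 0.0757 and its 95% interval ran from -1.0 to -0.06: at this depth the change could not be sized. Rec114 was -0.03 for E2 over vehicle (95% interval -0.20 to 0.15), and 26.9% of its exon bases lie under Nptn on the other strand, so its counts are uncertain.

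In the strand exchange class, Dmc1, Rad51ap2, Meiob and Spata22 fell and Tex15 rose with E2, and Dmc1, Rad51ap2 and Meiob fell with BMP2. DMC1 is the meiotic recombinase that coats the broken ends and searches the homologue. Dmc1 was at 37.1, 37.4 and 39.7 CPM with E2, at 39.4, 39.3 and 42.6 CPM with BMP2 and at 47.3, 50.6 and 51.3 CPM with vehicle. Both treatments lay well below vehicle and overlapped each other. Dmc1 fell by 0.39 ± 0.041 with E2 (1.31-fold lower, edgeR adjusted p = 3.2e-15) and by 0.30 ± 0.040 with BMP2 (1.23-fold lower, adjusted p = 8.4e-10), the largest fall with BMP2 among the 35 genes, and E2 over BMP2 was -0.09 (95% interval -0.17 to -0.01, adjusted p = 0.104).

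Rad51ap2 was at 37.5, 40.3 and 36.6 CPM with E2, at 43.2, 41.2 and 41.9 CPM with BMP2 and at 49.0, 48.5 and 49.2 CPM with vehicle. The 3 groups did not overlap. Rad51ap2 fell by 0.36 ± 0.040 with E2 (1.28-fold lower, edgeR adjusted p = 7.2e-14) and by 0.22 ± 0.039 with BMP2 (1.16-fold lower, adjusted p = 6.5e-06). Meiob, whose product binds single-stranded DNA together with SPATA22, was at 40.9, 43.5 and 44.4 CPM with E2, at 44.7, 44.0 and 46.2 CPM with BMP2 and at 52.7, 48.6 and 50.3 CPM with vehicle. Treated libraries all lay below vehicle libraries. Meiob fell by 0.24 ± 0.039 with E2 (edgeR adjusted p = 2.0e-07) and by 0.17 ± 0.038 with BMP2 (adjusted p = 4.9e-04). Its partner Spata22 fell by 0.13 with E2, and 80.5% of its exon bases are shared with the annotated same-strand gene Gm49340, so its counts depend on how those reads were assigned.

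Tex15, which in mice is needed for loading of the recombinases onto breaks, went the other way. Tex15 was at 1015, 1023 and 1000 CPM with E2, at 939.7, 935 and 952 CPM with BMP2 and at 924, 919 and 970.0 CPM with vehicle. E2 lay above all other libraries, and BMP2 and vehicle overlapped. Tex15 rose by 0.11 ± 0.017 with E2 (1.08-fold higher, edgeR adjusted p = 1.2e-08, but -0.05 when scaled to germ cell genes), and BMP2 over vehicle was 0.01 (95% interval -0.03 to 0.04). Mnd1 and Psmc3ip, the HOP2-MND1 pair that stimulates DMC1, did not pass over vehicle in either treatment. Mnd1 was at 10.9 ± 0.280 CPM with E2, 9.54 ± 0.691 CPM with BMP2 and 10.4 ± 0.552 CPM with vehicle. Psmc3ip was -0.12 for E2 over vehicle (adjusted p = 0.0925), passed without vehicle replicate 3 (edgeR adjusted p = 0.0141) or E2 replicate 1 (adjusted p = 0.00865), and shares 21.2% of its exon bases with Mlx on the other strand.

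Of the 5 crossover genes measured, Msh5, Hfm1 and Tex11 fell and Mlh3 rose with E2, and Msh5 and Hfm1 fell with BMP2. MSH5 pairs with MSH4 to stabilise recombination intermediates, HFM1 is a helicase, TEX11 is an X-linked partner of these sites, and MLH3 acts late to resolve crossovers. Msh5 was at 15.3, 13.8 and 14.5 CPM with E2, at 15.5, 15 and 16.4 CPM with BMP2 and at 18.0, 18.3 and 17.6 CPM with vehicle. Both treated groups lay below vehicle. Msh5 fell by 0.31 ± 0.063 with E2 (1.24-fold lower, edgeR adjusted p = 2.6e-05) and by 0.20 ± 0.061 with BMP2 (adjusted p = 0.0144). The BMP2 call of Msh5 was lost without BMP2 replicate 1 (0.0527), BMP2 replicate 2 (0.0919) or vehicle replicate 2 (adjusted p = 0.0578), and with DESeq2 (0.0558). Its partner Msh4 did not pass over vehicle in either treatment. Msh4 was at 42.5 ± 1.76 CPM with E2, 38.7 ± 2.21 CPM with BMP2 and 40.5 ± 1.5 CPM with vehicle, a log2 fold change of 0.07 for E2 over vehicle (95% interval -0.01 to 0.15).

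Hfm1 was at 192, 189 and 198 CPM with E2, at 197, 200.1 and 204 CPM with BMP2 and at 210.2, 209 and 213 CPM with vehicle. Vehicle lay above both treatments, which overlapped. Hfm1 fell by 0.13 ± 0.022 with E2 (edgeR adjusted p = 5.7e-07) and by 0.07 ± 0.022 with BMP2 (adjusted p = 0.0143, and 0.131 without BMP2 replicate 1 or 0.0501 without BMP2 replicate 2). Mlh3 was at 84.8, 82.3 and 84.2 CPM with E2, at 80.6, 77.6 and 81.1 CPM with BMP2 and at 78.0, 75.1 and 75.6 CPM with vehicle. E2 lay above all other libraries, and BMP2 overlapped vehicle. Mlh3 rose by 0.14 ± 0.031 with E2 (1.1-fold higher, edgeR adjusted p = 1.4e-04, but -0.03 when scaled to germ cell genes), and BMP2 over vehicle was 0.06 (adjusted p = 0.159). Tex11 fell by 0.08 with E2 (adjusted p = 0.0126), a call lost without vehicle replicate 3 (0.0911), without E2 replicate 1 (0.126) and with DESeq2 (adjusted p = 0.0607). With BMP2, Tex11 did not pass (-0.06, edgeR adjusted p = 0.104) except without BMP2 replicate 3 (adjusted p = 0.0372). Tex14, which keeps the bridges between germ cells of a cyst open, was at 61.9 ± 2.25 CPM with E2, 61.7 ± 1.84 CPM with BMP2 and 62.6 ± 1.79 CPM with vehicle (SD, n = 3), and its 95% intervals over vehicle were -0.08 to 0.05 for E2 and -0.09 to 0.05 for BMP2.

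**Figure D3:**
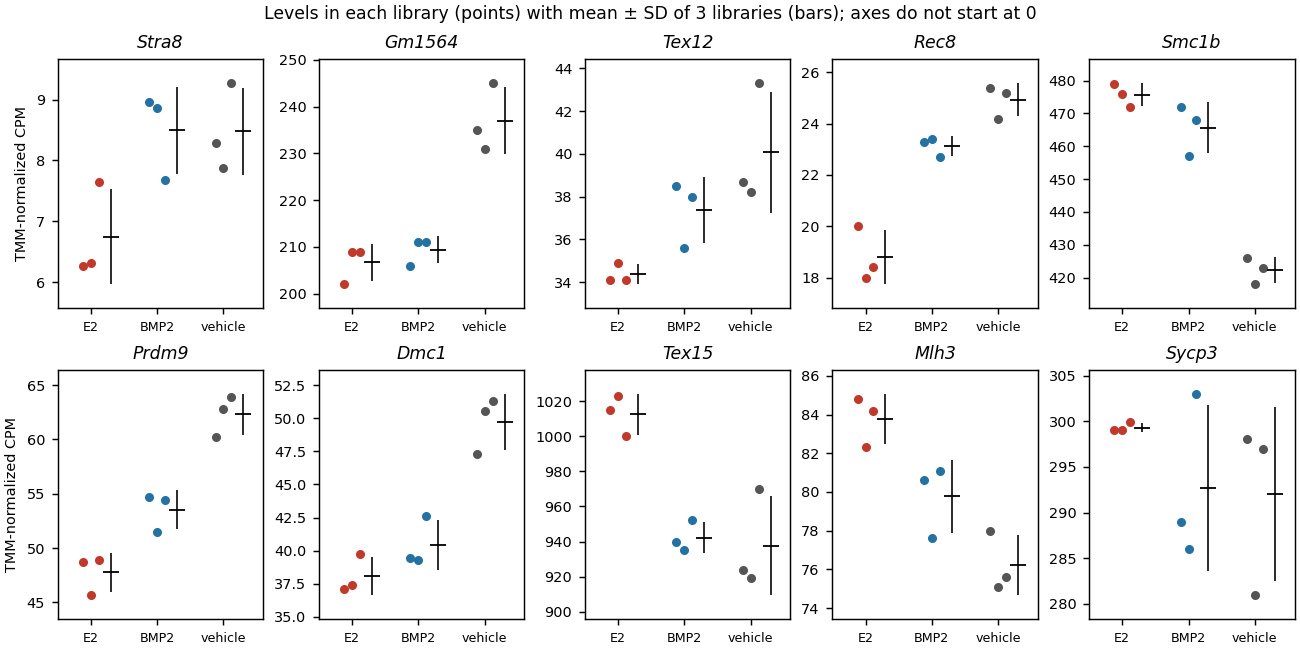
TMM-normalised CPM of 10 of the genes in each library (points), with the mean and SD of 3 libraries beside them, for E2, BMP2 and vehicle from left to right in each panel. Stra8 and Rec8 are lowest with E2, and Gm1564 and Dmc1 are low with both treatments. Prdm9 is lowest with E2, then BMP2, then vehicle. Smc1b is high with both treatments, and Tex15 and Mlh3 are highest with E2. Scaled to germ cell genes, these rises over vehicle did not pass. Smc1b was then 0.01 with E2 and -0.07 with BMP2, and with E2 Tex15 was -0.05 and Mlh3 -0.03.

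Set directly against each other, the treatments differed for 14 of the 35 genes. Of these, 11 were lower with E2 than with BMP2 (31.4%, beside 14.1% of all genes), 3 were higher (8.57%, beside 14.0%) and 21 did not pass, beside 28.2% of all genes passing in either direction; the median was -0.086, beside -0.001 for all genes. This comparison is also the test of the difference between the E2 and BMP2 effects, since the vehicle libraries cancel. In meiotic entry the gene was Stra8, in the cohesins Rec8 and in the axis genes Hormad1, all described above. Every E2 library lay below every BMP2 library in 15 of the 35 genes and above in 5, against 19.8% of all genes each way. Syce1 was at 47.7, 46.1 and 49.6 CPM with E2 and at 52.9, 53.6 and 51.5 CPM with BMP2, without overlap, a log2 fold change of -0.14 ± 0.037 (edgeR adjusted p = 0.00161). Tex15 was higher with E2 by 0.10 ± 0.017 (edgeR adjusted p = 9.4e-08). The calls of Stra8, Rec8, Hormad1, Prdm9, Syce1 and Tex15 were kept whichever library was left out. Scaled to germ cell genes, 2 of the 11 remained lower with E2, Stra8 (-0.28, edgeR adjusted p = 0.0276) and Rec8 (-0.25, adjusted p = 0.00361), and all 3 higher calls remained. The germ cell scaling factor was uneven within BMP2, at 1.09 and 1.11 for replicates 1 and 3 but lower for replicate 2. The germ cell genes also include the rare Tdrd6, Nanos3, Sall4 and Pou5f1, at or below 1.19 CPM in every library. The part of this spread and of these rare genes in the lost calls was not tested.

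The other 8 calls between the treatments were each lost when single libraries were left out. Rad51ap2 (-0.14, edgeR adjusted p = 0.00385) was lost without E2 replicate 3 (0.0594), and Mei1 (-0.18, adjusted p = 0.0112) without E2 replicate 2 (0.0834). Spata22 (-0.10, edgeR adjusted p = 0.0190) was lost without BMP2 replicate 3 (0.137) or E2 replicate 2 (0.155). Msh4 (0.13, edgeR adjusted p = 0.00870), higher with E2, was lost without BMP2 replicate 1 (0.0998), BMP2 replicate 2 (0.0513) or E2 replicate 1 (0.0834). Tex12 (-0.12, edgeR adjusted p = 0.0287) was lost without BMP2 replicates 1 (0.156) or 3 (0.108) or E2 replicates 1 (0.0788) or 3 (0.0894). Syce2 (-0.09, edgeR adjusted p = 0.0448) was lost without BMP2 replicates 1 (0.210) or 2 (0.0645) or any E2 replicate (0.0615 to 0.115). Hfm1 (-0.06, edgeR adjusted p = 0.0455) was lost without BMP2 replicates 2 (0.0801) or 3 (0.233), vehicle replicate 1 (0.0521) or E2 replicates 1 (0.131) or 2 (0.264). Mnd1 (0.19, edgeR adjusted p = 0.0490), higher with E2, was lost without BMP2 replicates 1 (0.116) or 2 (0.225), vehicle replicate 1 (0.0515) or any E2 replicate (0.0582 to 0.142). Of these 8, Syce2, Tex12, Mnd1, Spata22 and Hfm1 also did not pass with DESeq2. Calls were also gained when single libraries were left out. Psmc3ip passed without E2 replicate 1 (edgeR adjusted p = 0.0123), and Hormad2 without BMP2 replicate 2 (0.0308). Sycp3 passed as higher without BMP2 replicate 3 (0.0435), and Syce3 as lower without vehicle replicate 2 (0.0493) or 3 (0.0454). With the trend over GC content and length removed, 16 members were lower and 2 higher.

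Summed over its genes, each class moved by less than its most responsive members. The double-strand break genes summed to 98.3 to 103 CPM with E2, 107 to 113 CPM with BMP2 and 117 to 122 CPM with vehicle, a ratio to vehicle of 0.839 with E2 and 0.920 with BMP2. The axis genes had ratios of 0.879 and 0.952 with E2 and BMP2, and the meiotic entry genes 0.910 and 0.915. For synaptonemal complex genes the ratios were 0.972 with E2 and 0.984 with BMP2, since Sycp1 and Sycp3 hold most of the sum, and for crossover genes 0.961 and 0.966. The strand exchange sum was 1.03 with E2 although its median log2 fold change was -0.127, because Tex15 alone holds most of that sum. Over all 35 genes the sum was 4495 to 4527 CPM with E2, 4433 to 4561 CPM with BMP2 and 4498 to 4671 CPM with vehicle, and the ranges overlapped. Across the 35 genes, the log2 fold change for E2 over BMP2 rose with mean level (Spearman rho 0.60), and less so for E2 over vehicle (0.43) and BMP2 over vehicle (0.15). These are descriptions over n = 35 genes of the same libraries, which share depth and base composition.

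**Figure D4:**
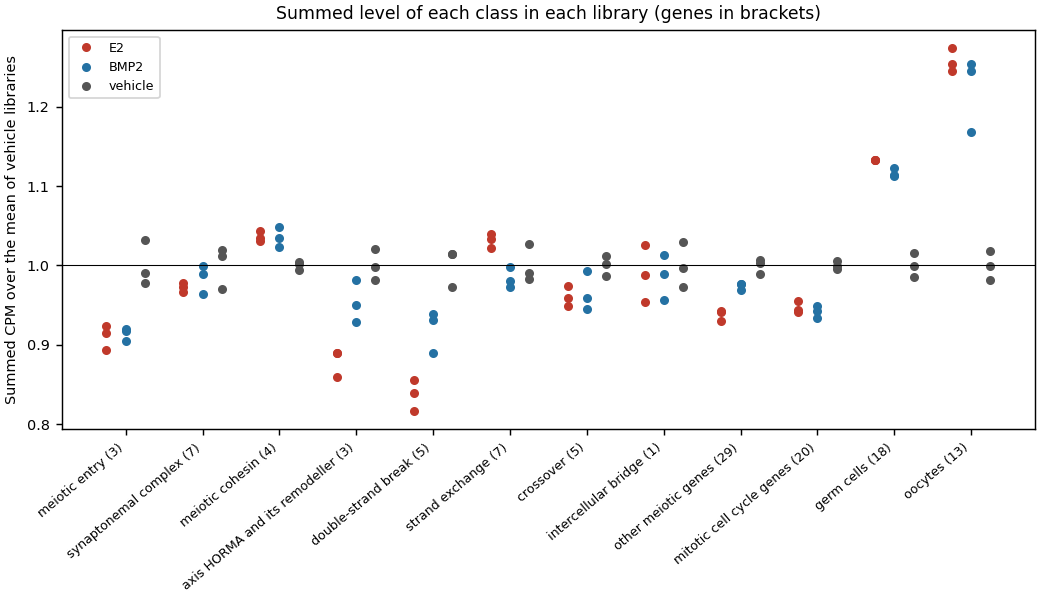
Summed CPM of each class in each library, divided by the mean of the vehicle libraries, with the number of genes in brackets (the axis does not start at 0). The double-strand break and axis classes lie lowest with E2, the cohesin class lies above 1 with both treatments, and germ cell and oocyte marker genes lie at 1.11 to 1.27 in treated libraries.

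The wider meiotic programme outside the 35 genes was sampled with 29 measured genes of telomere attachment, break formation, repair and meiotic control. With E2, 13 of the 29 fell (44.8%) and 2 rose (6.90%), with a median of -0.054, beside 16.5% and 15.8% of all genes. With BMP2, 8 fell (27.6%) and 3 rose (10.3%), with a median of -0.020, beside 6.85% and 6.84% of all genes. M1ap, a crossover factor, was at 78.0 CPM with E2, 84.3 CPM with BMP2 and 103 CPM with vehicle on average, and fell by 0.41 ± 0.030 with E2 (edgeR adjusted p = 8.4e-26) and by 0.29 ± 0.029 with BMP2 (adjusted p = 7.1e-16). The telomere to nuclear envelope genes Majin (-0.46 with E2, -0.25 with BMP2) and Terb1 (-0.17, -0.13), the break factor Iho1 (-0.37, -0.23), the repair factor Mcmdc2 (-0.27, -0.21), the central element gene Six6os1 (-0.15, -0.10) and Zcwpw1 (-0.16, -0.07), which reads PRDM9 marks, fell with both treatments. Cpeb1, an RNA-binding regulator of synaptonemal complex mRNAs, rose by 0.20 with E2 and by 0.17 with BMP2, and scaled to germ cell genes it was 0.04 with E2 and -0.04 with BMP2.

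Some germ cell markers moved the other way from most of the 35 genes. Of the 18 markers, the same 9 were higher than vehicle in both comparisons, 0 were lower, and the rest stayed short of the threshold. The share higher was 50.0% in each, beside 15.8% of all genes with E2 and 6.84% with BMP2. The shares of all genes lower were 16.5% and 6.85%. The 9 were Ddx4, Mael, Tdrd1, Tdrd5, Tdrd9, Mov10l1, Piwil2, Asz1 and Dppa3. Ddx4 rose by 0.10 and 0.12 and Tdrd9 by 0.62 and 0.51 with E2 and BMP2. The median of the 18 was 0.105 with E2 and 0.146 with BMP2. With each treatment 5 of the 18 lay below 0, among them Dazl (-0.04 with both) and Taf4b (-0.04 with E2, -0.03 with BMP2). Dazl overlapped between groups (359 to 368 CPM with E2, 359.9 to 369 CPM with BMP2, 361 to 395 CPM with vehicle). The summed level of the 18 was 1674 to 1675 CPM with E2, 1644 to 1660.2 CPM with BMP2 and 1456 to 1501 CPM with vehicle. Whether the number of germ cells changed was not tested. Of 13 oocyte genes, 10 passed the filter on low counts, and of these 6 rose and 1, Gdf9, fell with E2 (2.14-fold lower, edgeR adjusted p = 9.9e-07), while 5 rose and 0 fell with BMP2. The sum of the 13 was 147 to 150.4 CPM with E2, 138 to 148 CPM with BMP2 and 116 to 120.3 CPM with vehicle. Scaling each library to the germ cell genes moved the median of all genes from -0.003 to -0.164 for E2 over vehicle. For BMP2 over vehicle it moved from -0.002 to -0.217, and for E2 over BMP2 from -0.001 to 0.053. The size of these shifts depends on the germ cell genes chosen, and other choices were not tested. In each comparison the shift is common to all genes, so by construction the differences between genes stay as given. In the same libraries, 8 of 20 mitotic cell cycle genes fell, 2 rose and 10 did not pass with E2. With BMP2, 10 of the 20 fell, 0 rose and 10 did not pass. Summed surface epithelium markers were at 416 to 425 CPM with E2, 532 to 544 CPM with BMP2 and 607 to 632 CPM with vehicle, and the part of changes in other cell types in the meiotic results was not tested.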

How the data were processed

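RNA-seq libraries were made from total RNA of whole cultured ovaries using a TruSeq version 2 kit of Illumina that keeps no strand information. Per the submitters' processing notes, TopHat2, HTSeq, DESeq2 and the build mm10 were used; the sources used here do not give versions, annotation or strand setting. The authors deposited 1 table of raw counts per gene for each library. Groups were read from the title prefixes, B2 being taken as BMP2 and C as vehicle. Lines without a gene (38.2% to 39.7% of all counts in a library) stayed out of library sizes.

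Counts were filtered with filterByExpr (minimum count 10, minimum total 15), scaled by TMM and fitted in 1 robust quasi-likelihood model of 9 libraries in 3 groups (edgeR 4.0.16, limma 3.58.1, R 4.3.3), without a replicate block. Tests were two-sided, with a threshold of 0.05 on the adjusted p; the SE is the log2 fold change over the root of F. The biological coefficient of variation was 4.48%. Counts of any 2 replicates varied beyond sampling noise, with a chi-square of 1.51 to 2.39 a gene. RPKM used the union of GENCODE vM21 exons; promoters are from RefSeq (1 per gene, the lowest start where several). The script was tested on simulated counts. The members and gene lists were chosen with earlier results of these data known. All 35 members are accounted for; values per library are given, in each class, for up to 3 called members with the smallest p in each comparison with vehicle and for Stra8, Dmc1, Sycp3, Rec8 and Smc1b, and other meiotic genes are named when called in both comparisons with vehicle, up to 8 by smallest p. Alternatives were DESeq2 1.42.0, other scalings and filters, 2-group fits, a replicate block, leaving out each library, a threshold of 0.01, a 1.2-fold test and a GC and length correction (natural spline with 5 df).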

Additional observations from a re-analysis of the deposited data

How the results depend on the processing

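With the adjusted p under 0.01, 1 member was higher and 1318 genes passed for BMP2 over vehicle, and 6 members were lower for E2 over BMP2. The 1.2-fold test gave 0 members higher in all 3 comparisons, and 4, 0 and 0 lower for E2 over vehicle, BMP2 over vehicle and E2 over BMP2, with 877, 70 and 784 genes. DESeq2 called 1465 genes for BMP2 over vehicle, against 2239 with edgeR, and 7 members lower for E2 over BMP2, against 11. Scaled to germ cell genes, 0 members were higher and 31 lower with BMP2 (11082 genes), 0 were higher with E2 (9081 genes), and 2 were lower for E2 over BMP2. That scaling reversed the sign, before the shift of all genes is taken off, for BMP2 over vehicle in Stra8 (-0.21), Sycp1 (-0.20), Sycp3 (-0.21), Smc1b (-0.07), Rad21l (-0.07), Trip13 (-0.15), Rec114 (-0.13), Tex15 (-0.21) and Mlh3 (-0.15), and for E2 over vehicle in Ythdc2 (-0.12), Sycp3 (-0.13), Rad21l (-0.09), Mnd1 (-0.10), Msh4 (-0.09), Tex15 (-0.05) and Mlh3 (-0.03), and for E2 over BMP2 in 5 genes that did not pass, Gm1564 (0.03), Sycp1 (0.03), Stag3 (0.03), Spo11 (0.01) and Tex11 (0.04); the scaling itself sets the germ cell genes to no change. The cause of the other moves was not tested. The median-ratio size factors, low-count filters and 2-group fits left the counts of members and genes within 1.5 times.

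Leaving out each library in turn, members called higher numbered 3 to 3 for E2 over vehicle, 1 to 2 for BMP2 over vehicle and 1 to 4 for E2 over BMP2, members called lower 20 to 20, 8 to 11 and 7 to 12, and genes 4520 to 5316, 1631 to 2235 and 3938 to 4848. Replicate numbers showed no sign of pairing: deviations of libraries with the same number correlated at -0.0311 to 0.0271. Correlations over all genes from 3 libraries in a group cannot exclude shared cultures or litters. With the replicate block, 5512 genes, 3 members higher and 20 lower were called for E2 over vehicle, 2512, 2 and 12 for BMP2 over vehicle, and 4875, 4 and 12 for E2 over BMP2. Mei4, with about 1 CPM, is limited by depth.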

Other observations

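A few meiotic genes outside the 35 were picked after their values were seen. Top6bl, whose product is the partner subunit of SPO11 in mice, was at 6.52 CPM with E2, 7.44 CPM with BMP2 and 8.57 CPM with vehicle on average, and fell by 0.39 ± 0.089 on the log2 scale with E2 (edgeR adjusted p = 1.6e-04), while BMP2 over vehicle was -0.21 (adjusted p = 0.0981). Brca2, which loads recombinases onto broken DNA, was at 201 CPM with E2 and 219 CPM with each of BMP2 and vehicle, and fell by 0.12 with E2 (edgeR adjusted p = 7.4e-07). Tex19.1, a germ cell gene needed for synapsis in male mice, was at 26.9 CPM with E2, 31.6 CPM with BMP2 and 26.2 CPM with vehicle, and rose by 0.27 with BMP2 (edgeR adjusted p = 3.6e-06).

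Across the 35 genes, the log2 fold change for E2 over BMP2 went with transcript length (Spearman rho 0.39) and against GC content (rho -0.35). The same values were 0.23 and -0.23 for E2 over vehicle, and 0.045 and -0.016 for BMP2 over vehicle. They describe 35 genes measured in the same libraries. Over 16169 genes with an annotated transcript, the values were 0.044 and -0.15 for E2 over BMP2, 0.12 and -0.13 for E2 over vehicle, and 0.12 and 0.0061 for BMP2 over vehicle.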
